A study of Oryza sativa Japonica Group with 20 samples.

Results

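The regions described here carried H3K27me3 without H3K4me3 in wild-type rice root tips and had no H3K27me3 peak in root tips of the plt345 mutant. H3K27me3 peaks of 4 libraries were merged into regions, and a mark counted as present in a library where its peaks covered at least 150 bp of a region. A region was kept in the set if H3K27me3 was present in both wild-type libraries and in neither plt345 library, and H3K4me3 in none of the 4 H3K4me3 libraries. The members were thus chosen by the H3K27me3 and H3K4me3 peaks themselves. The set holds 1787 of 27526 H3K27me3 regions, and these are called the lost regions below. They made up 12.3% of the 14499 regions that had H3K27me3 in both wild-type libraries and no H3K4me3 (H3K27me3-only regions), beside 11.7% of the 20610 regions with H3K27me3 in both wild-type libraries that were lost with or without H3K4me3. Both shares come from the contrast that defined the set. "Lost" means that no peak was called, and signal below the peak threshold cannot be seen in peak lists.

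H3K27me3 is laid down by Polycomb repressive complex PRC2 and marks genes that are held silent, often those of other organs or stages of development. EMF2b is a subunit of the rice PRC2 complex. H3K4me3 is found at the start of active genes, and a stretch with H3K27me3 alone is the usual state of a stably repressed plant locus. PLT3, PLT4 and PLT5 are PLETHORA proteins, transcription factors with AP2 domains known from Arabidopsis as regulators of the root meristem.

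The nuclei came from root tips about 0.8 cm long, of seedlings 7 days after germination, and were profiled with CUT&Tag, in which a transposase tethered to an antibody tags the chromatin nearby. Wild-type (WT) plants were of cultivar ZH11, the mutant plt345 is affected in PLT3, PLT4 and PLT5 together, and neither group was treated. The 14 libraries used were 2 per genotype for H3K27me3, H3K4me3 and EMF2b and 2 of WT for PLT5. The labels do not say whether replicates came from separate batches of plants, so the spread between them may be technical, and a root tip mixes several cell types. IgG and plt345 PLT5 samples (6 of 20) were not analysed here, so neither the background of the assay nor the specificity of the PLT5 antibody was tested.

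Each WT H3K27me3 list held 23957 to 24185 peaks, each plt345 list 20841 to 20942. The median −log10 q was also higher in WT (3.34 and 3.36) than in plt345 (2.73 and 2.60). EMF2b lists ranged from 14851 to 17891 peaks over both genotypes and PLT5 lists from 10822 to 12590. All peaks, folds and q-values were made by the authors library by library, and read depth is unknown. The size of the set depends on the length of the lists. With the strongest peaks of each list taken to equal number, 1069 regions were lost, and with lists of equal covered length 732 were. Both cuts remove mainly the weakest WT peaks and add no plt345 peak, so a smaller set was to be had from the cut itself. Why the plt345 lists are shorter was not tested. Other results under both cuts are given in the last section. The part that list length plays in them was not tested otherwise.

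The lost regions were narrow in WT. Their covered length had a median of 521 bp in WT replicate 1 and 507 bp in WT replicate 2, and the mean of the libraries ran from 277.5 to 3380 bp with quartiles of 404.5 and 746 bp. The 11213 H3K27me3-only regions present in all 4 libraries (kept regions) had a median of 1554 bp, and the 1499 regions absent from only 1 plt345 library one of 636 bp, between the lost and the kept. Of the narrowest decile of H3K27me3-only regions 51.0% were lost, against 29.1% of the next decile, 6.61% of the fifth and 0.276% (4 of 1450) of the widest. The shortest H3K27me3 peak called was 273 to 291 bp long in the 4 lists, so the narrowest lost regions lay just above the shortest call. These values describe the rule's own contrast and carry no test.

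**Figure D1:**
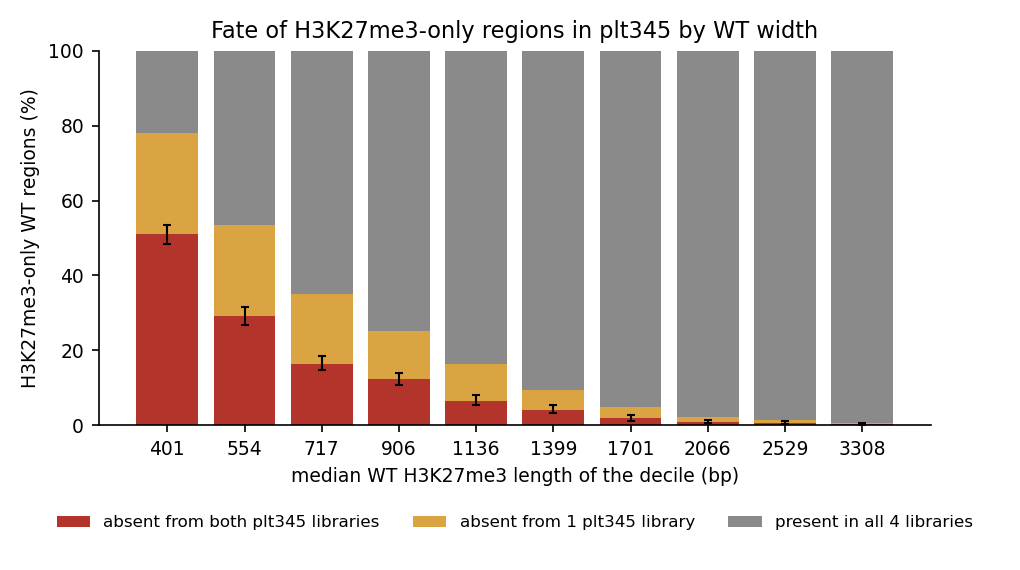
Share (%) of H3K27me3-only WT regions that were absent from both plt345 libraries, absent from 1, or present in all 4 libraries, by decile of mean WT covered length, with the median length (bp) of each decile on the horizontal axis. Black bars are 95% Wilson intervals (counting error only) of the share absent from both, which falls from 51.0% in the narrowest decile to 0.276% in the widest.

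Because width differed so much, kept regions were set beside the lost ones at like width. They were binned at the width deciles of the lost regions, each bin weighted by its share of lost regions ("kept regions at lost widths"). The top bin has no upper limit, so width is matched only loosely there. It holds 179 lost regions of 1088 to 3380 bp and 7843 kept regions, which reach 7112.5 bp. With this matching the lost regions were still the weaker calls by −log10 q. Their median −log10 q was 2.25 in WT replicate 1 and 2.29 in WT replicate 2, against 2.96 in both libraries for kept regions at lost widths and 4.36 and 4.24 for all kept regions. Ranked within each WT list, the median lost region stood at the 26.5th and 25.8th percentile of −log10 q and the kept regions at lost widths at the 42.6th and 41.7th. Fold enrichment differed little, with medians of 2.00 and 2.05 at lost regions and 2.07 and 2.12 at kept regions at lost widths. The mean fold difference was -0.019 with lists of equal number and -0.0018 with lists of equal covered length. For −log10 q these alternatives were not run. The WT replicates also overlapped less at lost regions, sharing a median of 72.5% of the bases covered in either library against 77.0%. WT H3K27me3 was used by the rule, so all these values are a description.

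**Figure D2:**
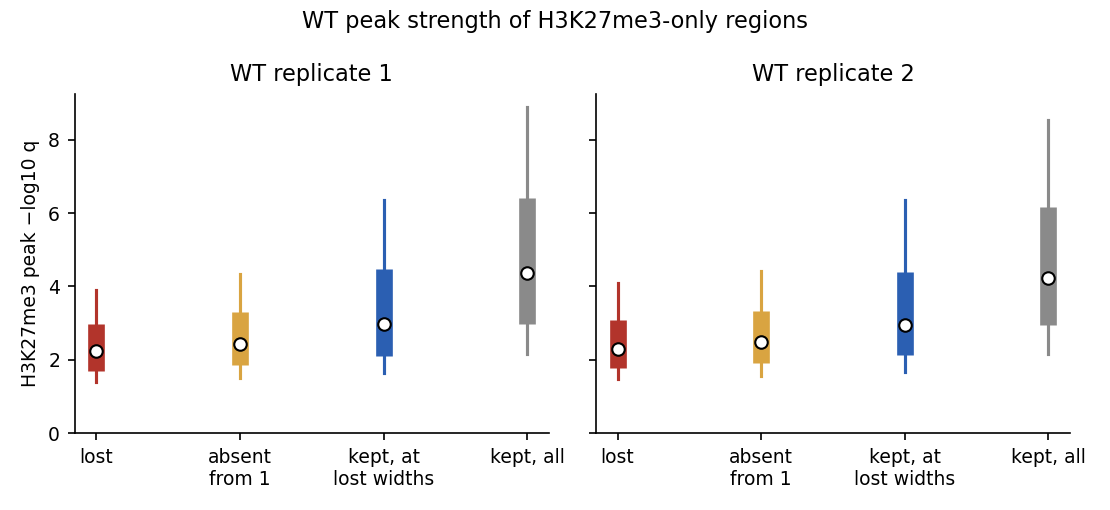
The −log10 q of the H3K27me3 peak in each WT library at lost regions, regions absent from 1 plt345 library, kept regions at lost widths and all kept regions. Circles are medians, thick bars the quartiles and thin lines the 10th to 90th percentiles over regions. The lost regions sit lowest in both libraries, with medians of 2.25 and 2.29.

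The presence rule left little room at its edge for H3K27me3. No lost region had a single H3K27me3 base in a plt345 peak, since every called peak is longer than the minimum. Just outside the rule were the 1499 regions with H3K27me3 in 1 plt345 library, where that library covered a median of 486 bp. For H3K4me3, 42 of the lost regions held some H3K4me3 base, at most 141 bp, and 14 of them held 100 bp or more. On the other side, 15 regions that lost H3K27me3 stayed out of the set with H3K4me3 less than 50 bp above the minimum.

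The 6 widest lost regions were exceptions to the narrow rule, with a mean WT length of 2789 to 3380 bp. They include chr5:7363292-7366742, with 2355 and 3451 bp in the WT libraries, chr3:14981659-14984529, with 2787 and 2834 bp, and chr12:19028249-19031444, with 2382 and 3196 bp. The region chr7:6879908-6883626, with 3041 and 3719 bp, was the widest of all. Their folds (2.16 to 2.70) were all above the medians of the lost regions, 2.00 and 2.05, and their −log10 q ran from 1.91 to 4.90. EMF2b was absent from all 4 libraries at 4 of the 6. At chr11:3948720-3953021 EMF2b covered 761 and 911 bp in WT, 0 and 249 bp in plt345. None of the 6 had PLT5. Positions are those of the lists, for which the sources used here name no genome build, and no region was assigned to a gene.

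EMF2b, which the rule did not use, lay over a minority of the lost regions in either genotype. It was present at 18.1% (324) and 17.3% (310) of them in the WT libraries and at 16.3% (291) and 19.3% (344) in the plt345 libraries. The genotypes overlapped, with the plt345 libraries holding both the lowest and the highest share. The mean was 17.7% ± 0.554 (SD, n = 2) in WT and 17.8% ± 2.10 (SD, n = 2) in plt345, a difference of 0.028 percentage points (exact two-sided permutation test, p = 1, where 2 against 2 libraries cannot go below 0.333). With 2 libraries a side this test could not have passed 0.05, so it does not show that EMF2b was unaltered. A minimum of 500 bp for every mark gave another set, of 1432 regions. It retains 38.0% of the lost regions, which make up 47.4% of it. In that set the EMF2b share fell by 4.09 points in plt345 (exact permutation test, p = 0.333, the smallest it can give). Relative to kept regions of like width the change there was -1.28 points, so kept regions shared most of the fall. Where EMF2b was present at lost regions, its peaks covered a median of 435.5 and 424 bp in WT and 349 and 367 bp in plt345. At kept regions of all widths the medians were 541.5 and 512.5 bp in WT and 423 and 432.5 bp in plt345. The shorter EMF2b coverage in plt345 is thus not particular to the lost regions.

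Kept regions at lost widths carried EMF2b less often in every library, at 13.3% and 13.4% in the WT libraries and at 11.5% and 14.7% in those of plt345. The excess at lost regions was 4.80 and 3.95 points in the WT libraries and 4.80 and 4.56 points in plt345. Its change between genotypes was 0.301 points (exact permutation test over the 4 libraries, p = 1). Regions absent from only 1 plt345 library stood at least as high as the lost regions, at 20.1% and 19.9% in WT and 16.9% and 21.0% in plt345, so the excess is not particular to regions lost from both libraries.

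**Figure D3:**
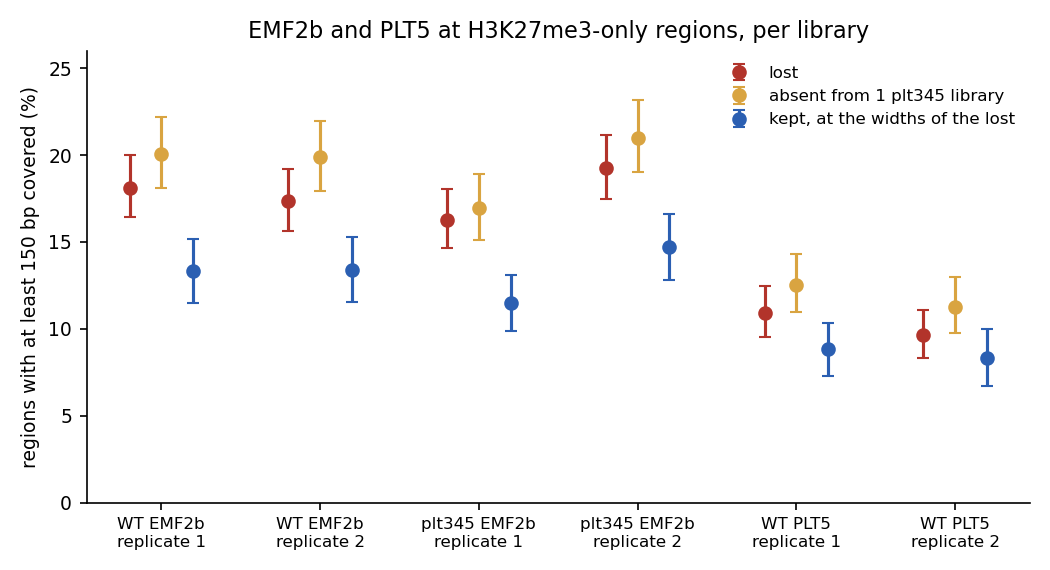
Share (%) of regions with at least 150 bp of EMF2b or PLT5 in each library, for lost regions, regions absent from 1 plt345 library and kept regions at lost widths. Bars are 95% intervals for counting error over regions. In each EMF2b library the lost regions (16.3 to 19.3%) lie above the kept regions at lost widths (11.5 to 14.7%).

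Taken by presence across libraries, 264 lost regions (14.8%, 95% interval 13.2 to 16.5) had EMF2b in both WT libraries, where 12.5% of all H3K27me3-only regions and 24.4% of all regions with H3K27me3 in both WT libraries did. Kept regions at lost widths reached 10.7% (9.07 to 12.2), 4.12 points lower. The difference was 1.90 points with a minimum of 500 bp and 2.07 points with only peaks above the 25th percentile of q. EMF2b was present in all 4 libraries at 150 lost regions (8.39%, against 18.6% of all WT H3K27me3 regions), and kept regions at lost widths gave a close share of 7.29%. The excess lay mainly in regions with EMF2b in 1 to 3 libraries, which were 360 (20.1%) of the lost against 13.2% of the kept at lost widths. EMF2b was found in none of the 4 libraries at 1277 lost regions (71.5%), against 79.5%.

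At most lost regions with EMF2b in WT, EMF2b was still found in at least 1 plt345 library. Of the 264 lost regions with EMF2b in both WT libraries, 64 (24.2%, 19.5 to 29.8) had it in neither plt345 library. The same loss took 26.8% of all H3K27me3-only regions with EMF2b and 13.3% of all WT H3K27me3 regions with EMF2b, so the lost regions stood near the background of regions without H3K4me3. Conversely, 63 lost regions had EMF2b in both plt345 libraries and in neither WT one, 4.45% (3.49 to 5.65) of the 1417 without EMF2b in WT. That gain took 3.12% of H3K27me3-only and 5.57% of all WT H3K27me3 regions. The losses were led by chr2:24886418-24888306, where EMF2b covered 1069 and 1168 bp in WT, beside 1889 and 1874 bp of H3K27me3, and neither EMF2b nor H3K27me3 was called in plt345. At chr1:29848468-29849407 EMF2b covered 940 bp in both WT libraries, and at chr12:14876038-14877565 794 and 871 bp, again with 0 bp in plt345. Opposite cases, with H3K27me3 lost and EMF2b retained, were chr3:31814251-31815875, where EMF2b covered 1406 and 1353 bp in WT and 1625 and 1619 bp in plt345, and chr1:8798259-8799877, with 1257 and 904 bp in WT and 1331 and 1277 bp in plt345. The third of this list, chr7:15401354-15403673, had shorter EMF2b peaks in the mutant, of 728 and 662 bp against 1897 and 1925 bp.

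PLT5 peaks, from WT only, covered at least 150 bp of 10.9% (195) and 9.63% (172) of the lost regions in its libraries. Counting a PLT5 site as a peak found in both libraries that touches the region by at least 1 bp, 140 lost regions were bound (7.83%, 6.68 to 9.17). Among all H3K27me3-only regions 6.49% were bound, and among all WT H3K27me3 regions 19.5%. Kept regions at lost widths gave 6.19% (4.86 to 7.51), 1.65 points lower, and the intervals overlap. The difference was 0.782 points without WT H3K27me3 replicate 2, and regions absent from 1 plt345 library were bound in 9.07% of cases. It was not uniform over width. At 404.5 to 522.5 bp, a width quartile of the lost regions, 5.59% of the lost and 6.79% of the kept regions were bound. In the other quartiles the lost regions were bound more often.

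Most lost regions bound by PLT5 also had EMF2b. Of the 140 bound by PLT5, 117 (83.6%) had EMF2b in both WT libraries, against 147 (8.93%) of the 1647 not bound, so 147 of the 264 lost regions with EMF2b in both WT libraries had no PLT5 site. At most bound regions EMF2b was also present in the mutant. All 4 libraries had it at 92 of these regions (65.7%, 57.5 to 73.1) and was lost at 7, while 8 had it in no library. Of the 1647 unbound regions 58 (3.52%) had EMF2b in all 4 libraries and 1269 (77.0%) in none. Per library, EMF2b was present at 86.4% and 87.9% of the bound lost regions in WT and at 71.4% and 85.7% in plt345. Kept regions show the same pairing, with EMF2b in all 4 libraries at 360 of 665 bound (54.1%) and 359 of 10548 unbound regions.

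Within the lost regions, EMF2b and PLT5 were more frequent at higher WT H3K27me3 fold. In the decile with the lowest fold 9 of 179 regions (5.03%) had EMF2b in both WT libraries and 1 (0.559%) was bound by PLT5. In the decile with the highest fold the figures were 42 of 179 (23.5%) and 30 of 179 (16.8%). Kept regions cut at the same folds went from 6.87% in the lowest bin to 10.7% in the highest for EMF2b and from 1.67% to 6.11% for PLT5, and were highest in between, at 14.1% and 8.13%. In the lowest bin the intervals of lost and kept regions overlap, and in the highest the lost regions lay above the kept. The kept regions in these bins were wider, with medians of 1166 to 1674 bp.

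**Figure D4:**
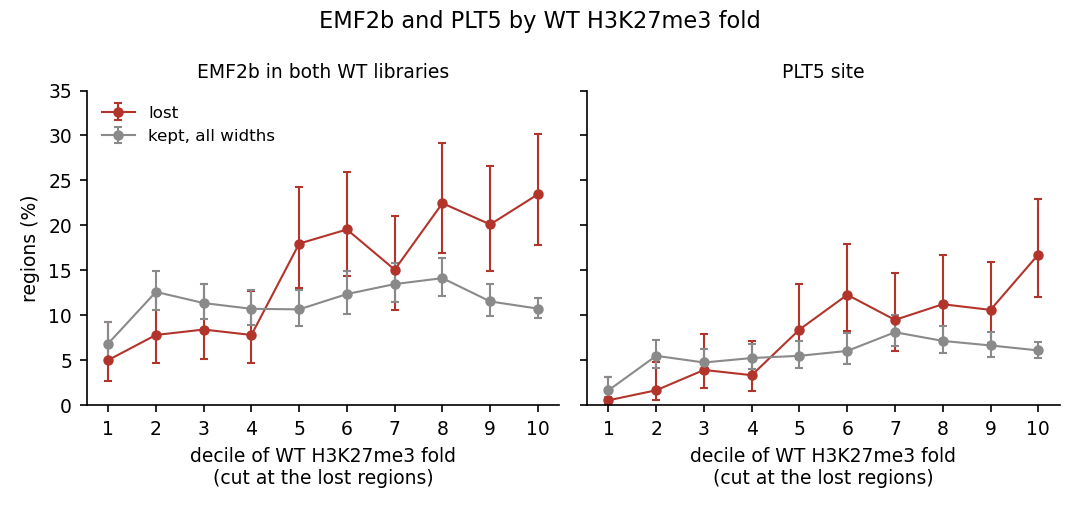
Share (%) of lost and of kept regions with EMF2b in both WT libraries (left) and with a PLT5 site (right), by decile of mean WT H3K27me3 fold, cut at the folds of the lost regions. Bars are 95% Wilson intervals for counting error. Among lost regions EMF2b runs from 5.03% to 23.5% and PLT5 from 0.559% to 16.8%.

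The 6 lost regions with the highest WT fold were all bound by PLT5 and had EMF2b in all 4 libraries. They were short, 5 of them between 316 and 365.5 bp, and the sixth 993 bp. At chr8:5818143-5818521 H3K27me3 had a fold of 5.59 and 5.84 in the WT libraries, EMF2b one of 18.0 and 20.4 in WT and 19.2 and 19.0 in plt345, and PLT5 one of 21.2 and 23.6. At chr12:13342280-13342652 the folds were 5.46 and 5.67 for H3K27me3, 22.3 and 23.3 for EMF2b in WT, 25.9 and 27.2 in plt345, and 25.8 and 24.7 for PLT5. The peaks of the 3 antibodies covered nearly the same 358 to 379 bp at both places. With chr12:4678327-4678708 these are also the lost regions with the strongest PLT5 peaks, at a mean −log10 q of 127.9, 104.8 and 81.6. A fold in one list cannot be compared with a fold in another, and whether IgG is enriched at these positions was not tested.

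Of these regions 3 lie in the 100 kb window with most lost regions, on chromosome 12 between 13342280 and 13419369. It holds 8 lost regions, which are all 8 H3K27me3-only WT regions there, beside 5 regions with H3K4me3 that had H3K27me3 in all 4 libraries. Of the 8, 6 were bound by PLT5 and had EMF2b in both WT libraries. The widths of all 8 ran from 306.5 to 993 bp with a median of 344 bp.

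Most lost regions lay near kept H3K27me3, at gaps slightly longer than those of kept regions at lost widths. The gap to the nearest kept region, with or without H3K4me3, had a median of 2842 bp, against 2523 bp for kept regions at lost widths. A kept region lay within 5 kb of 66.9% of the lost (64.7 to 69.0) and of 68.8% of the kept at lost widths (66.2 to 71.5). The sign of this difference depended on the setting. It was -9.13 points with a minimum of 500 bp and 3.61 points with only peaks above the 25th percentile of q. Fewer lost regions were enclosed, with 39.6% having a kept region within 10 kb on both sides against 46.2%. No kept region was found within 50 kb of 40 lost regions (2.24%, against 1.92%). The most remote was chr12:6127767-6128554, 391922 bp from the nearest kept region, with folds of 3.53 and 3.01, followed by chr4:10628393-10629558 (310240 bp) and chr9:150419-150744 (221725 bp). These gaps use the contrast of the rule and are a description.

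The lost regions were closer to EMF2b, H3K4me3 and PLT5 sites of WT than kept regions at lost widths. An EMF2b site lay within 5 kb of 45.0% of them (42.7 to 47.4), against 33.4% (30.8 to 36.0), with median gaps of 6197 and 10622 bp. Of all lost regions 29.8% had their nearest EMF2b site 1 bp to 5 kb away without touching it, against 22.0% of the kept at lost widths. For H3K4me3, 47.6% (45.3 to 49.9) had a site within 5 kb against 35.7% (33.1 to 38.4), and the median gaps were 5424 and 8495 bp. For PLT5 the shares were 30.3% (28.2 to 32.4) and 22.1% (19.8 to 24.3), and the median gaps 11810 and 18855 bp. The regions absent from 1 plt345 library gave 45.3%, 49.0% and 31.1%, next to the lost ones. The 3 excesses were 11.6, 11.8 and 8.20 points. Lost regions had a median of 6 WT H3K4me3 sites within 50 kb and kept regions at lost widths 5, so their surroundings differed as well. With kept regions matched on width and on H3K4me3 sites within 50 kb, a comparison added after the data were seen, they were 8.91, 7.71 and 5.84 points.

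**Figure D5:**
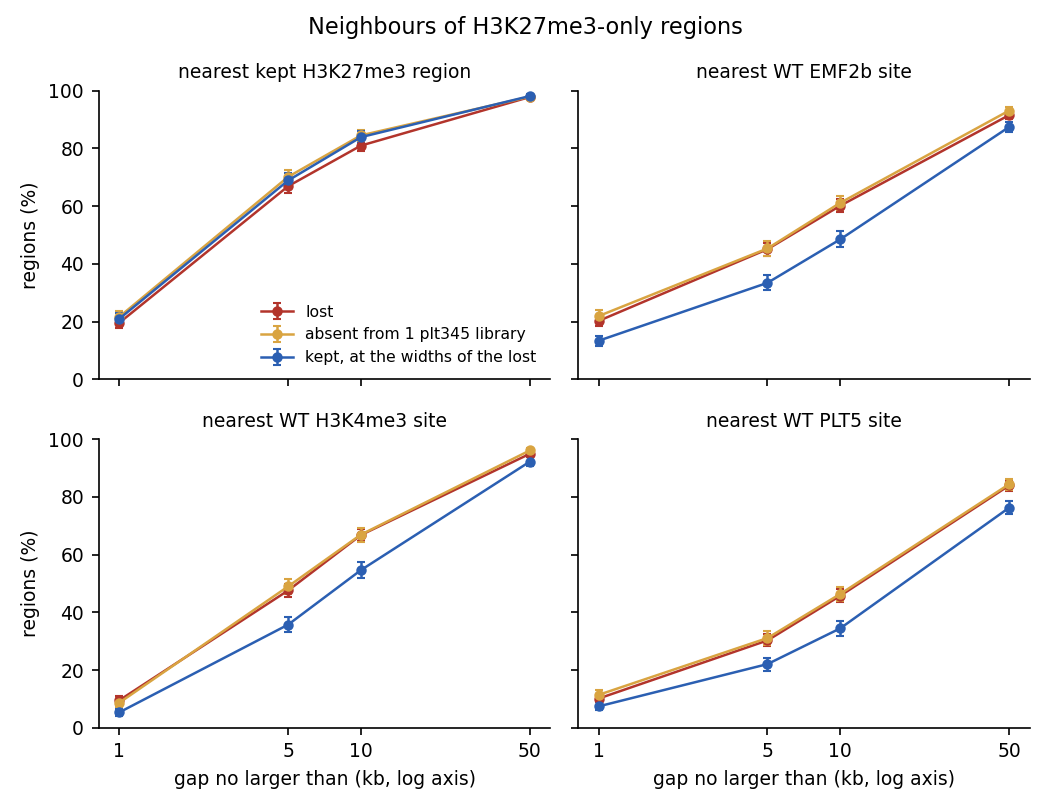
Share (%) of regions with a neighbour no farther than 1, 5, 10 and 50 kb (log axis), for kept H3K27me3 regions and for WT EMF2b, H3K4me3 and PLT5 sites. Bars are 95% intervals for counting error. Lost regions and those absent from 1 plt345 library run together above the kept regions at lost widths for EMF2b, H3K4me3 and PLT5 (45.0% against 33.4% at 5 kb for EMF2b), and all 3 run close for kept H3K27me3.

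Regions were lost on all 12 chromosomes and in all surroundings compared. Of H3K27me3-only regions with 0 or 1 WT H3K4me3 site within 50 kb 9.34% were lost, and of those with 9 to 19 sites 14.7% were. In the narrowest quartile of regions the share rose from 30.8% (0 to 3 sites) to 39.2% (8 to 19 sites). The share lost ran from 10.6% (122 of 1152) on chromosome 7 to 13.9% (156 of 1125) on chromosome 8, with overlapping intervals (8.94 to 12.5 and 12.0 to 16.0). Another lost region lay within 5 kb of 241 lost regions (13.5%, 12.0 to 15.2) and of 12.6% (10.7 to 14.5) of the kept regions at lost widths, with overlapping intervals. Over 50 kb the shares were 56.0% and 47.2%, and the median gap to the nearest other lost region was 39591 bp against 56076 bp. Regions absent from 1 plt345 library gave 10.7% within 5 kb and 53.1% within 50 kb, with a median gap of 45798 bp. The larger share over 50 kb is thus not particular to the lost regions. These gaps use the contrast of the rule and are a description, and their intervals cover counting error only. A region that gained H3K27me3 in plt345 lay within 5 kb of 58 lost regions (3.25%, 2.52 to 4.17), against 2.60% (1.76 to 3.44) for kept regions at lost widths, so the intervals overlap.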

How the data were processed

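CUT&Tag peak lists of 14 libraries from rice root tips were used. The submitters' processing notes name MACS2 2.2.7.1, Bowtie2 2.4.4, Trim Galore 0.6.6 and deepTools 3.5.0, with no settings. The sources used here state no genome build. The authors deposited 1 list per library, with peak positions, a score, a fold enrichment (a ratio) and the −log10 of the p-value and q-value. The lists hold no read counts, so depth is unknown.

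Peaks were merged without bridging gaps, using Python 3.11.15 with numpy 2.4.6 and scipy 1.17.1. Region shares carry 95% Wilson intervals, and width-standardised shares intervals from the binomial errors of their 10 strata. All cover counting error only. Regions are not replicates, so no p was computed over them. EMF2b was compared over libraries by an exact permutation test. The code was checked on simulated lists with known answers. The lowest width stratum held only 38 kept regions, which makes its share imprecise.

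Regions were named by rule, leaving out unplaced sequences. They are the 6 widest, the 6 with the highest smaller WT fold, the 3 farthest from a kept region, the 3 with the strongest PLT5, the 3 with the longest EMF2b in all 4 libraries, the 3 with the longest EMF2b lost, and the densest 100 kb window. The set, the lists and the tests were chosen with earlier results of these data known. The lists hold positions only, so no gene lists or sequences were used. Alternatives were another minimum length, a q filter, lists of equal number or length, merging across 500 bp, other matching, leaving out each library, and a replicate block.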

Additional observations from a re-analysis of the deposited data

How the results depend on the processing

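Values here are differences in percentage points, lost minus kept at lost widths, unless another quantity is named. Under all alternatives run, the excess of lost regions near EMF2b, H3K4me3 and PLT5 and the excess with EMF2b in both WT libraries or with PLT5 stayed positive. With a minimum length of 500 bp the share lost was 10.5%, EMF2b at lost regions fell by 4.09 points from WT to plt345, its change relative to kept regions was -1.28, the EMF2b excess in both WT libraries was 1.90, and the share near a kept region differed by -9.13. With only peaks above the 25th percentile of q, the corresponding EMF2b values were -1.23, -2.05 and 2.07, PLT5 0.493, the nearness to kept regions 3.61, to EMF2b 7.26, to H3K4me3 5.72 and to PLT5 4.77, and the WT fold difference was -0.178. With lists of equal number there were 1069 lost regions (8.56% of H3K27me3-only regions), a WT fold difference of -0.019, a PLT5 excess of 0.869, and 9.25 and 5.11 for nearness to EMF2b and PLT5. With lists of equal covered length there were 732 (6.61%), a fold difference of -0.0018, an EMF2b excess of 2.44, and 0.958, 8.09, 8.48 and 3.75 for nearness to kept regions, EMF2b, H3K4me3 and PLT5. Of the 1787 lost regions, 38.0% were also in the set at 500 bp, 37.5% under the q filter, 59.4% at equal number and 40.3% at equal length. None of these settings adds a plt345 peak, so the others left the set because their WT peaks no longer counted. The WT fold difference was -0.073 with 5 width strata, -0.161 without matching and 0.0032 with strata of width and fold, which match on fold by construction. Strata of width and fold gave 4.75 for EMF2b, 2.23 for PLT5 and -5.24 for nearness to kept regions. Without matching the EMF2b excess was 3.27 and nearness to kept regions 2.29. Strata of width and H3K4me3 sites within 50 kb, added after the data were seen, gave 3.41 for EMF2b in both WT libraries and 8.91, 7.71 and 5.84 for nearness to EMF2b, H3K4me3 and PLT5. Leaving out 1 H3K27me3 library at a time gave 2549 to 3101 lost regions and a share lost of 17.4% to 18.8%, and leaving out 1 H3K4me3 library, added after the data were seen, 1805 to 1825 and 12.3% to 12.4%, since the rule then asks for fewer libraries. Over all libraries left out the ranges were as follows. The WT fold difference ran from -0.078 to -0.029, EMF2b between genotypes from -1.45 to 1.51, and its change relative to kept regions from -1.13 to 0.726. The EMF2b excess ran from 3.11 to 4.82, PLT5 from 0.782 to 2.26, and nearness to kept regions from -4.59 to 0.531, to EMF2b from 9.51 to 12.5, to H3K4me3 from 9.14 to 13.5 and to PLT5 from 7.14 to 9.43. The EMF2b differences between genotypes were never past the threshold, which 2 against 2 libraries cannot reach. Same-numbered libraries of the 2 genotypes did not deviate together in covered length (r of -0.0067 for H3K27me3 and -0.0096 for EMF2b). The numbers were therefore not used for pairing in the main results. Whether same-numbered libraries shared plants or handling cannot be told from this. With the replicate number as a block (replicate block), 3772 and 3741 regions were lost within the numbers, a mean of 3756.5. That count asks for only 1 H3K27me3 library of each genotype, a looser rule than the main one. The EMF2b differences of 0.028 and 0.301 are those of the main results by construction, since the same libraries and regions are averaged. They are therefore no check of the main results. The causes of these changes were not tested otherwise. Unknown read depth limits every count.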
